A study of Oryza sativa with 8 samples.

Results

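The genes of jasmonate synthesis and of the TIFY family were followed in rice leaves under normal and drought conditions. Genes were taken by name. A gene entered when the array's gene table gave at least 1 probe set to it alone and its symbol or a synonym was TIFY, JAZ, LOX, AOS, AOC, OPR or JAR with a number or letter. Of 40 genes that met the rule by name, 36 had such a probe set, among 17905 genes with a single-gene probe set. They were measured by 41 probe sets, and a gene with more than 1 was represented by the brightest. There were 19 synthesis genes, namely 6 LOX, 4 AOS, 1 AOC, 7 OPR and 1 JAR gene, and 17 TIFY genes, of which 13 also carry a JAZ name. The synthesis genes were grouped by name alone, so not all need act in the jasmonate route. LOX4, TIFY1B, OPR3 and a second gene named OPR1 had no probe set of their own and were not analysed here.

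Jasmonate is made from linolenic acid of plastid membranes. A lipoxygenase (LOX) adds oxygen, allene oxide synthase (AOS) turns the product into an unstable allene oxide, and allene oxide cyclase (AOC) closes its ring to give OPDA. An OPDA reductase (OPR) acts on it in the peroxisome, where the side chain is then shortened, and JAR1 joins the jasmonic acid formed to isoleucine. Jasmonoyl-isoleucine is the active hormone. It binds the F-box protein COI1 together with a JAZ protein, a TIFY protein that holds down transcription factors such as MYC2, and the JAZ protein is then degraded. JAZ genes are themselves known targets of the factors that their proteins repress, and wounding, feeding insects and water deficit are known to raise jasmonate in leaves.

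Leaves came from 21-day-old seedlings of japonica Zhonghua11 rice grown in liquid culture. The 4 groups were OsGRAS23 overexpression (OE) seedlings under drought, OE seedlings under normal conditions, wild type (WT) seedlings under drought and WT seedlings under normal conditions. Each group had 2 biological replicates, each 1 Affymetrix rice array of RNA pooled from 20 seedlings. Drought plants had been moved onto filter paper and were taken when WT leaves started rolling, whereas normal plants were sampled before the treatment. Thus no array held watered seedlings that had been handled alike, and drought cannot be told apart from handling or elapsed time. OE seedlings were taken at the time set by WT leaves. The promoter of the OsGRAS23 transgene and the number of transformed lines are not given in the sources used here, and the transgene's own level was not analysed here.

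Values were the authors' log2 expression, and a change is a difference of log2 means. Changes were tested with limma on all 8 arrays over 57194 probe sets. To be called, a gene needed an adjusted p under 0.05 together with a change of 2-fold or more. Precision is limited by the few arrays, and an exact permutation test of 1 gene, 2 arrays against 2, cannot give a two-sided p below 0.333. The calls thus depend on a spread that limma pools over the groups and over many probe sets. Leaf markers were present, with RBCS at 13.66 to 14.11 on all 8 arrays but RBCS1 dim at 3.22 to 3.66, and none of 6 was called in either drought comparison (3 were lower at an unadjusted limma p under 0.05 in each). The root marker LSI1 read 9.20 to 11.89 on all 8 arrays, and the mean log2 value over 9 root markers was 4.86 and 5.09 in OE drought, 5.01 and 5.80 in OE normal, 4.83 and 4.86 in WT drought, and 5.45 and 6.09 in WT normal. LSI2, SCR1 and IRT1 of the 9, and CYCB2;2 and PCNA of 8 markers of dividing cells, were called lower in WT drought. None of either list was called higher, but 4 of the 9 root markers and 1 of the 8 had a higher mean in WT drought. SCR1 was dim, at 3.27 to 5.10 over the 8 arrays. Hybridisation controls, which are added to every sample, had medians of 9.99 to 10.81 on the drought arrays and 8.39 to 9.56 on the normal arrays. The 3' minus 5' difference of the actin control was 3.81 to 4.07 on the drought arrays and 4.45 to 5.11 on the normal arrays, whereas that of the GAPDH control overlapped, at 2.04 to 2.84 on the drought arrays and 2.3 to 3.36 on the normal arrays. Root and dividing-cell markers had no call in OE drought, and the root means overlapped there. The hybridisation and actin controls, and in WT the root marker mean, lay apart between drought and normal arrays, and their part in the changes of jasmonate genes was not tested. Whether the samples labelled as leaf also held root tissue was not tested. Fewer cells of a type and less RNA per cell cannot be told apart.

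In WT leaves, 13 of the 36 genes were up-regulated under drought and none was called lower. They were 8 of the 19 synthesis genes, with at least 1 in each class, by name, from LOX to JAR, and 5 of the 17 TIFY genes. The OPR gene called was OPR1, whereas OPR7, known as a rice enzyme of the OPDA step, was not called. Over all probe sets, 2.17% were called higher and 5.51% were called lower (1239 and 3153 probe sets). These counts were 1656 and 2370 after quantile normalization, and 1032 and 3840 after median centring. With 1 probe set per gene, 3.85% of genes were called higher and 11.4% were called lower. The median change was 0.93 over the 36 genes, 0.08 over all probe sets and -0.30 over all genes with 1 probe set each. No gene was called lower. Of the 36, 22 were higher and 4 were lower at an unadjusted limma p under 0.05, against 35.9% of all probe sets in either direction. Besides the 13 called, 5 genes were higher and 2 were lower at an adjusted p under 0.05 but changed by less than 2-fold. In OE leaves, 2 of the 36 genes, LOX5 and TIFY9, were up-regulated under drought, against 1.6% of all probe sets called higher and 0.836% called lower (3.37% and 1.85% of genes with 1 probe set each). None was called lower there, and 1 was lower at an unadjusted limma p under 0.05. The median change in OE was 0.43 over the 36 genes, 0.02 over all probe sets and -0.14 over all genes with 1 probe set each.

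**Figure D1:**
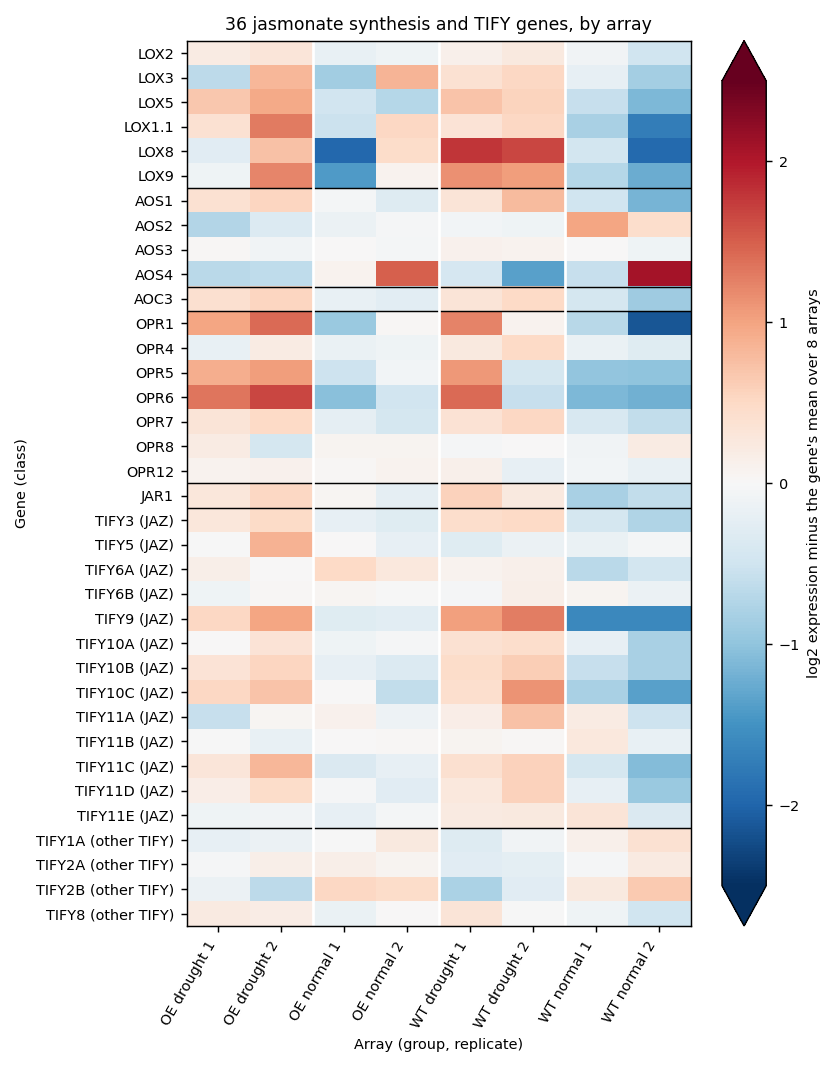
Each row is 1 of the 36 genes and each column 1 of the 8 arrays, and colour gives the log2 value minus the gene's mean over the 8 arrays, with red above and blue below it. All 4 drought arrays lie above all 4 normal arrays for 14 genes and below them for 2.

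Of the 6 lipoxygenase genes, 4 were up-regulated in WT drought, and the median change of the class was 0.92 in OE and 1.60 in WT. LOX5 read 11.81 and 12.09 in OE drought, against 10.66 and 10.41 in OE normal, and 11.86 and 11.70 in WT drought, against 10.56 and 10.004 in WT normal. Drought and normal arrays were fully apart. LOX5 rose in both lines, by 1.41 in OE (SE 0.21, limma adjusted p = 0.0115) and by 1.495 in WT (SE 0.21, limma adjusted p = 0.00372). Its probe set is of a kind that can match several transcripts.

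LOX8 and LOX9 lie next to each other in the genome and are also named CM-LOX1 and CM-LOX2. LOX8 read 7.58 and 8.59 in OE drought, against 5.89 and 8.32 in OE normal, and 9.65 and 9.52 in WT drought, against 7.40 and 5.91 in WT normal. The WT groups did not overlap, whereas 1 of the OE normal arrays lay above 1 of the OE drought arrays. LOX8 rose by 2.93 in WT (SE 0.73, limma adjusted p = 0.0273), and its change in OE was 0.98 (SE 0.73, limma adjusted p = 0.577). The WT call of LOX8 was lost in 5 of 18 alternatives, among them leaving out WT normal replicate 2, with a change of 2.18 (limma adjusted p = 0.195). LOX9 read 6.57 and 7.89 in OE drought, against 5.26 and 6.76 in OE normal, and 7.83 and 7.72 in WT drought, against 5.96 and 5.44 in WT normal. As for LOX8, replicate 2 was the higher array in both OE groups and the OE groups overlapped. LOX9 rose by 2.08 in WT (SE 0.51, limma adjusted p = 0.0258), and its change in OE was 1.22 (SE 0.51, limma adjusted p = 0.266). Another 2 probe sets of LOX9 were dim, with means of 3.89 and 2.91, and were not called. The WT call of LOX9 was also lost in 5 of 18 alternatives. Among them was the median over its probe sets, with a change of 0.33 (limma adjusted p = 0.243).

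LOX1.1 read 7.92 and 8.84 in OE drought, against 7.001 and 8.05 in OE normal, and 7.88 and 8.04 in WT drought, against 6.71 and 5.80 in WT normal. Both WT normal arrays were the lowest of the 8. LOX1.1 rose by 1.70 in WT (SE 0.42, limma adjusted p = 0.0265), and its change in OE was 0.85 (SE 0.42, limma adjusted p = 0.356). The WT call of LOX1.1 was lost in 4 of 18 alternatives. LOX2, with changes of 0.40 in OE and 0.47 in WT, and LOX3, a 9-lipoxygenase gene also named r9-LOX1, with changes of 0.09 in OE and 0.98 in WT, were not called in either line. A 9-lipoxygenase oxygenates a different carbon from the enzymes of the jasmonate route, and LOX3 is counted among the synthesis genes by its name only. Which carbon the enzymes of the other LOX genes oxygenate was not examined here. Without LOX3, the median change of the other 18 synthesis genes was 0.67 in OE and 1.1 in WT.

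Of the 4 allene oxide synthase genes, AOS1 alone was called. AOS1, also named PRECOCIOUS, read 10.68 and 10.84 in OE drought, against 10.24 and 9.98 in OE normal, and 10.63 and 11.10 in WT drought, against 9.81 and 9.14 in WT normal. The lowest drought array lay above the highest normal array. It rose by 1.39 in WT (SE 0.25, limma adjusted p = 0.00844), and its change in OE was 0.65 (SE 0.25, limma adjusted p = 0.222). AOS2 had changes opposite in sign to those of AOS1, -0.44 in OE (limma adjusted p = 0.343) and -0.80 in WT (limma adjusted p = 0.0339), under 2-fold in both. AOS3 was dim on every array, at 3.72 to 3.93. AOS4, the neighbour of AOS3, is given in full because its replicates were far apart, a choice made after its values were seen. It read 5.52 and 5.56 in OE drought, against 6.28 and 7.69 in OE normal, and 5.77 and 4.84 in WT drought, against 5.61 and 8.27 in WT normal. Its highest values fell on replicate 2 of both normal groups, the same arrays on which the mean of the root markers was highest, and the part of root tissue in AOS4 was not tested.

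AOC3 was the only allene oxide cyclase gene, known from the jasmonate-deficient mutants hebiba and cpm2. It read 12.22 and 12.34 in OE drought, against 11.63 and 11.55 in OE normal, and 12.14 and 12.31 in WT drought, against 11.38 and 10.93 in WT normal. All 4 drought arrays lay above all 4 normal arrays, and the order of the normal groups was OE above WT on all 4 arrays. AOC3 rose by 1.07 in WT (SE 0.18, limma adjusted p = 0.00689), and its change in OE was 0.69 (SE 0.18, limma adjusted p = 0.0803).

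Of the 7 OPR genes, OPR1 was called in WT drought and none was called in OE drought, although 4 of the 7 had an unadjusted limma p under 0.05 in OE. OPR1 read 11.39 and 11.83 in OE drought, against 9.48 and 10.42 in OE normal, and 11.64 and 10.48 in WT drought, against 9.71 and 8.26 in WT normal. Drought and normal arrays did not overlap, but WT drought replicate 2 was above the highest normal array by little. OPR1 rose by 2.07 in WT (SE 0.52, limma adjusted p = 0.0285), and its change in OE was 1.66 (SE 0.52, limma adjusted p = 0.138). The WT call of OPR1 was lost in 4 of 17 alternatives, and its probe set, like that of LOX5, can match several transcripts. OPR7 is given in full for its known role, after its values were seen. This rice enzyme of the OPDA step of jasmonate synthesis read 10.77 and 10.93 in OE drought, against 10.21 and 9.99 in OE normal, and 10.79 and 10.95 in WT drought, against 10.03 and 9.82 in WT normal. Its replicates lay close together and drought and normal arrays did not overlap in either line. The change was 0.75 in OE (limma adjusted p = 0.0453) and 0.95 in WT (limma adjusted p = 0.00748), both under 2-fold.

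OPR6, OPR5 and OPR4 lie side by side, and 1 other gene separates OPR4 from OPR1. OPR5 and OPR6 are described with OPR1 because the 3 genes shared an array pattern, a choice made after their values were seen. OPR5 read 9.45 and 9.58 in OE drought, against 8.03 and 8.49 in OE normal, and 9.62 and 8.11 in WT drought, against 7.56 and 7.54 in WT normal. OPR6 read 6.95 and 7.31 in OE drought, against 4.57 and 5.15 in OE normal, and 7.04 and 5.05 in WT drought, against 4.498 and 4.43 in WT normal. For OPR1, OPR5 and OPR6 alike, WT drought replicate 1 lay near the OE drought arrays and WT drought replicate 2 lay more than 1 log2 unit below replicate 1. These were the only 3 of the 36 genes with so wide a gap between the WT drought replicates. OPR6 had changes of 2.27 in OE (SE 0.52, limma adjusted p = 0.0515) and 1.58 in WT (SE 0.52, limma adjusted p = 0.0638). OPR5 had changes of 1.26 in OE (SE 0.40, limma adjusted p = 0.141) and 1.32 in WT (SE 0.40, limma adjusted p = 0.0519), and neither gene was called. A second, dimmer probe set of OPR5, with a mean of 4.34, had changes of 0.86 in OE and 0.17 in WT and was not called. Close copies of a gene may share signal on an array, and such cross-hybridisation was not tested. OPR4 was dim, at 4.07 to 4.89, and OPR8 and OPR12 had changes of -0.18 and 0.04 in OE and -0.06 and 0.08 in WT.

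**Figure D2:**
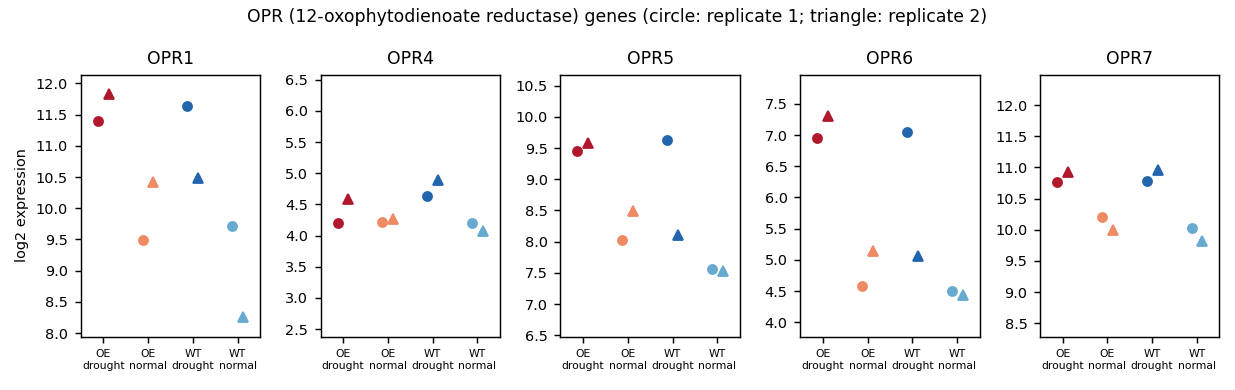
Log2 expression of OPR1, OPR4, OPR5, OPR6 and OPR7 in each group, with a circle for replicate 1 and a triangle for replicate 2, each panel on its own axis. In OPR1, OPR5 and OPR6 the WT drought circle stands more than 1 log2 unit above the WT drought triangle, whereas the OPR7 replicates lie close together.

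JAR1, also named GH3.5, encodes the enzyme that makes the active isoleucine conjugate. It read 8.76 and 8.99 in OE drought, against 8.52 and 8.25 in OE normal, and 9.05 and 8.72 in WT drought, against 7.66 and 7.86 in WT normal. The 2 WT normal arrays were the lowest of the 8. JAR1 rose by 1.13 in WT (SE 0.18, limma adjusted p = 0.00612), and its change in OE was 0.49 (SE 0.18, limma adjusted p = 0.211).

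Of the 13 JAZ genes, 5 were up-regulated in WT drought, namely TIFY3, TIFY9, TIFY10B, TIFY10C and TIFY11C. The median change over all 13 JAZ genes was 0.46 in OE and 0.92 in WT, against 0.65 in OE and 1.07 in WT for the 19 synthesis genes. TIFY names are used here because the gene table gives several JAZ numbers to more than 1 gene. TIFY9, the gene with JAZ5 as its symbol, read 9.10 and 9.58 in OE drought, against 8.29 and 8.32 in OE normal, and 9.61 and 9.87 in WT drought, against 6.99 and 6.97 in WT normal. The normal replicates of each line lay close together, the OE normal arrays stood between the WT normal arrays and all drought arrays, and none of the 4 groups overlapped another, although OE drought replicate 2 lay just under WT drought replicate 1. TIFY9 rose by 1.04 in OE (SE 0.19, limma adjusted p = 0.0228) and by 2.76 in WT (SE 0.19, limma adjusted p = 0.00033).

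TIFY10B read 12.82 and 13.01 in OE drought, against 12.28 and 12.13 in OE normal, and 12.94 and 13.09 in WT drought, against 11.90 and 11.66 in WT normal. TIFY10C read 10.86 and 11.05 in OE drought, against 10.35 and 9.72 in OE normal, and 10.77 and 11.46 in WT drought, against 9.53 and 8.98 in WT normal. In both genes all 4 drought arrays lay above all 4 normal arrays, and the WT normal arrays were the lowest. TIFY10B rose by 1.23 in WT (SE 0.16, limma adjusted p = 0.00281), and its change in OE was 0.71 (SE 0.16, limma adjusted p = 0.0527). TIFY10C rose by 1.86 in WT (SE 0.30, limma adjusted p = 0.00559), and its change in OE was 0.92 (SE 0.30, limma adjusted p = 0.146). The third gene of that subgroup, TIFY10A, changed by less than 2-fold, with 0.24 in OE (limma adjusted p = 0.665) and 0.92 in WT (limma adjusted p = 0.0215).

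TIFY3, also named EG2 and known for its role in the floral organs of the spikelet, read 13.12 and 13.31 in OE drought, against 12.62 and 12.54 in OE normal, and 13.27 and 13.33 in WT drought, against 12.38 and 12.07 in WT normal. TIFY11C read 11.53 and 12.06 in OE drought, against 10.87 and 11.02 in OE normal, and 11.64 and 11.81 in WT drought, against 10.79 and 10.14 in WT normal. Drought and normal arrays did not overlap in either gene. TIFY3 rose by 1.07 in WT (SE 0.16, limma adjusted p = 0.00483), and its change in OE was 0.63 (SE 0.16, limma adjusted p = 0.0781). TIFY11C rose by 1.26 in WT (SE 0.25, limma adjusted p = 0.0117), and its change in OE was 0.84 (SE 0.25, limma adjusted p = 0.112). The WT call of TIFY11C was lost in 4 of 18 alternatives.

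The neighbours of TIFY11C were not called. TIFY11A, TIFY11C and TIFY11B lie side by side in that order, and the changes of TIFY11A were -0.26 in OE and 0.61 in WT, and those of TIFY11B -0.11 in OE and 0.01 in WT, with neither called. A second probe set of TIFY11B gave -0.04 in OE and 0.60 in WT. TIFY11D and TIFY11E form another pair with 2 genes between them, and TIFY11D had 0.46 in OE and 0.98 in WT (limma adjusted p = 0.0291), under 2-fold, against 0.03 in OE and 0.25 in WT for TIFY11E. TIFY6B had changes of -0.06 in OE and 0.10 in WT, whereas its dimmer probe set gave -0.58 in OE (limma adjusted p = 0.119) and -0.69 in WT (limma adjusted p = 0.028). TIFY5 was dim, at 2.86 to 4.03.

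None of the other 4 TIFY genes was called in any comparison. TIFY1A, TIFY2A and TIFY2B also carry names of GATA factors, whose proteins have the TIFY domain but not the motif by which JAZ proteins bind COI1. TIFY1A, the brightest of them, read 8.04 and 8.10 in OE drought, against 8.24 and 8.49 in OE normal, and 7.92 and 8.16 in WT drought, against 8.36 and 8.62 in WT normal. All 4 drought arrays lay below all 4 normal arrays, by a narrow margin, with changes of -0.29 in OE (limma adjusted p = 0.455) and -0.45 in WT (limma adjusted p = 0.0982). TIFY2B was also below on all 4 drought arrays, with -0.88 in OE (limma adjusted p = 0.0897) and -0.98 in WT (limma adjusted p = 0.0246), and was not called. The median change of the 4 genes was -0.17 in OE and -0.41 in WT, and with 1 probe set per gene the median over 17905 genes was -0.14 in OE and -0.30 in WT.

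**Figure D3:**
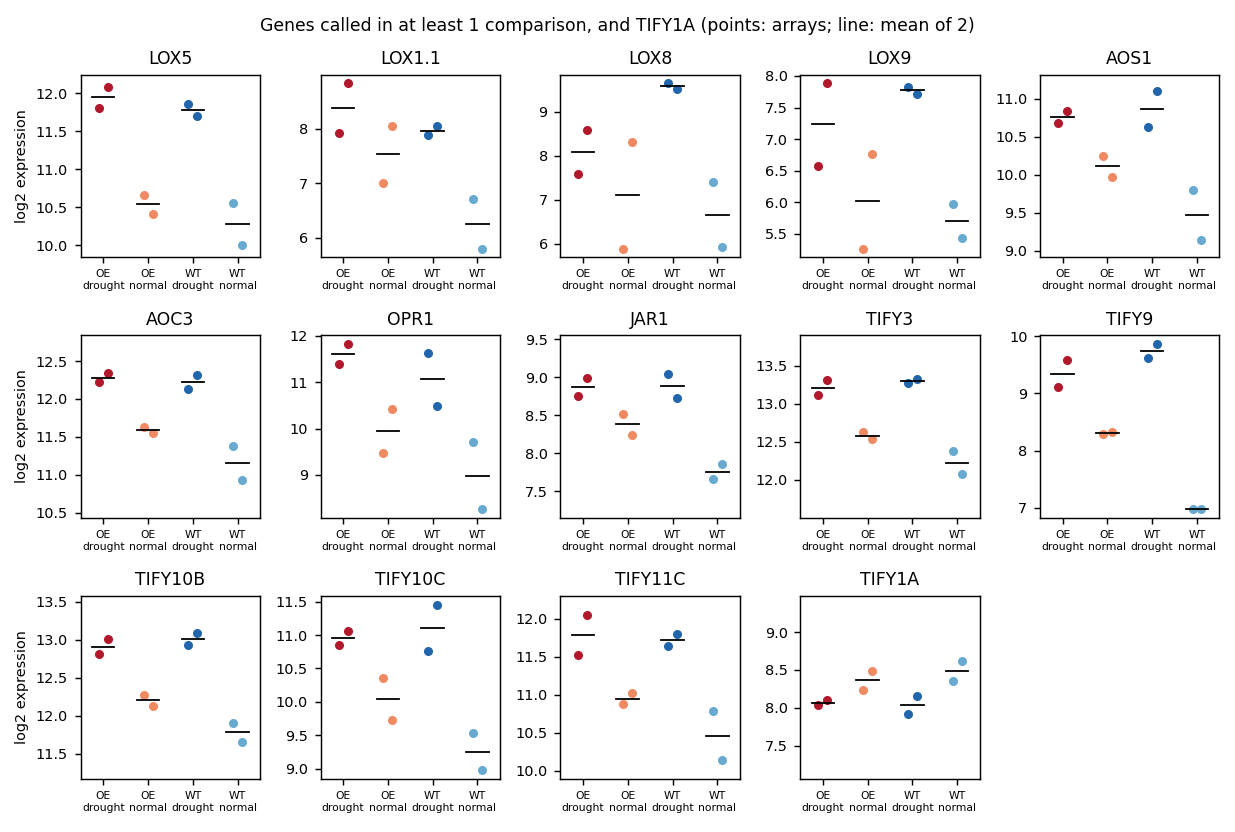
Log2 expression on the 8 arrays of the 13 genes called in at least 1 comparison and of TIFY1A, with points for arrays and lines for the mean of 2, each panel on its own axis. All 13 were called for a rise over WT normal, so their low WT normal means come with the choice, whereas in TIFY1A the WT normal mean is the highest of the 4.

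Over both lines, 14 of the 36 genes had all 4 drought arrays above all 4 normal arrays, against 11.9% of all probe sets, and 2 had them below, against 15.1%. The 14 were LOX2, LOX5, AOS1, AOC3, OPR1, OPR7 and JAR1 of the synthesis genes and TIFY3, TIFY9, TIFY10A, TIFY10B, TIFY10C, TIFY11C and TIFY11D of the JAZ genes. Within WT, drought arrays lay above normal arrays for 24 genes and below for 4, against 36.7% and 27.6% of probe sets. Within OE, they lay above for 18 genes and below for 6, against 25.8% and 25.1% of probe sets.

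**Figure D4:**
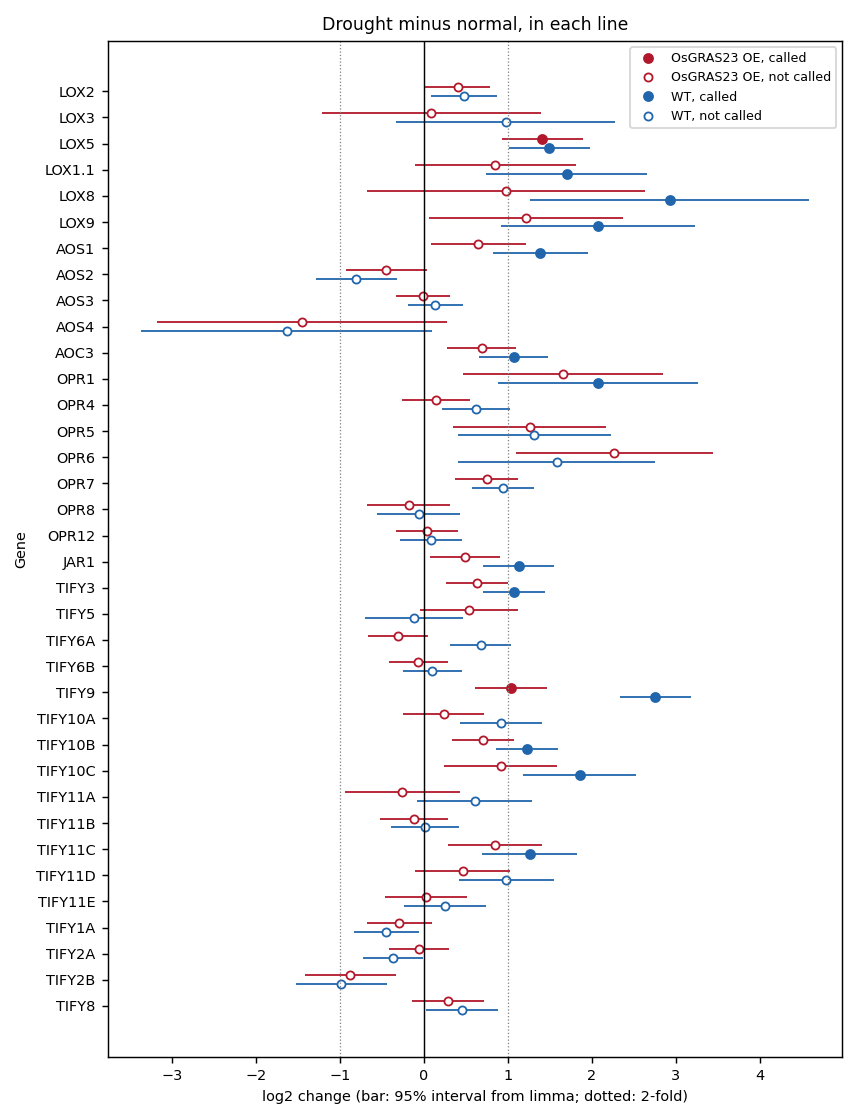
Log2 change, drought minus normal, of the 36 genes in OE (red) and WT (blue), with limma's 95% intervals and filled points for called genes. Called genes number 2 in OE and 13 in WT, and dotted lines mark 2-fold.

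The drought changes of OE and WT were set against each other in a test of the difference between them. No gene of the 36 was called, and no probe set of all 57194, so percent called was 0.0% in both directions. At an unadjusted limma p under 0.05 there were 3 of the 36 genes and 6.71% of all probe sets. These were TIFY9, TIFY6A and JAR1. TIFY9 had a difference, OE minus WT, of -1.72 (95% interval -2.33 to -1.12, limma adjusted p = 0.716). TIFY6A had -0.98 (95% interval -1.49 to -0.47, limma adjusted p = 0.729) and JAR1 had -0.64 (95% interval -1.23 to -0.04, limma adjusted p = 0.729). The difference was negative for 29 of the 36 genes, for 52.7% of all probe sets and, with 1 probe set per gene, for 28.7% of 17905 genes. A negative difference can be a smaller rise or a deeper fall in OE, so its sign does not give the size of a response. Over the 17905 genes the median change was itself a fall, -0.14 in OE and -0.30 in WT. The median difference was -0.30 over the 36 genes, -0.02 over all probe sets and 0.18 over the 17905 genes. Thus the difference in call counts, 2 in OE and 13 in WT, did not come with a gene whose change was shown to differ between the lines.

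TIFY6A is described after its values were seen, as the only gene of the 36 whose drought arrays lay apart from the normal arrays in opposite directions in the 2 lines. It read 9.24 and 9.11 in OE drought, against 9.60 and 9.36 in OE normal, and 9.19 and 9.21 in WT drought, against 8.43 and 8.63 in WT normal. The drought groups lay together, and the OE normal arrays were the highest and the WT normal arrays the lowest of the 8. Its changes were -0.31 in OE (SE 0.16, limma adjusted p = 0.384) and 0.68 in WT (SE 0.16, limma adjusted p = 0.0223), the second under 2-fold.

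Under normal conditions, none of the 36 genes was called between OE and WT, where 0.0157% of all probe sets were called higher and 0.0035% lower in OE. At an unadjusted limma p under 0.05, 8 of the 36 genes were higher and 1 was lower in OE, and 4.1% of all probe sets passed in either direction. OE normal arrays lay above both WT normal arrays for 15 of the 36 genes and below for 1, AOS2, against 14.6% and 16.4% of probe sets. The median difference was 0.28 over the 36 genes, 0.00 over all probe sets and -0.06 over all genes with 1 probe set each. TIFY9 had 8.29 and 8.32 in OE normal, against 6.99 and 6.97 in WT normal, a difference of 1.33 (SE 0.19, limma adjusted p = 0.117). TIFY6A had a difference of 0.95 (SE 0.16, limma adjusted p = 0.195), and AOS2, with 6.84 and 6.96 in OE normal, against 7.98 and 7.43 in WT normal, one of -0.80 (SE 0.21, limma adjusted p = 0.814). This comparison and the WT drought comparison share the WT normal arrays, so low values there enter both.

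Under drought, none of the 36 genes was called between OE and WT either, and 0.0157% of all probe sets were called higher and 0.0% lower in OE. At an unadjusted limma p under 0.05, 1 of the 36 was higher, TIFY5, a gene dim on every array, and 1 was lower, TIFY11A, against 7.06% of all probe sets in either direction. OE drought arrays lay above both WT drought arrays for 2 genes, TIFY5 and TIFY2A, and below for 9, against 18.0% and 21.8% of probe sets. Differences ran from -1.50 for LOX8 to 1.08 for OPR6, both genes whose replicates were more than 1 log2 unit apart in at least 1 group. TIFY9 had 9.10 and 9.58 in OE drought, against 9.61 and 9.87 in WT drought, a difference of -0.40 (SE 0.19, limma adjusted p = 0.694).

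**Figure D5:**
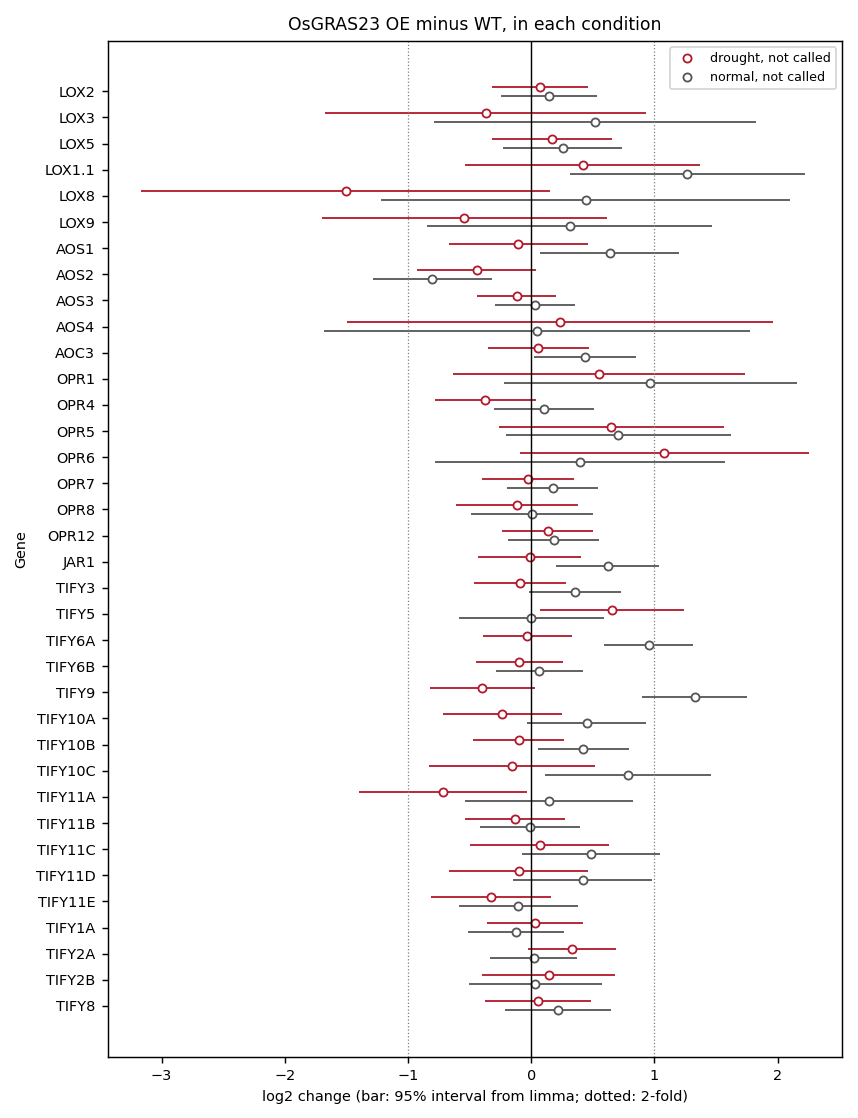
Log2 difference, OE minus WT, of the 36 genes under drought (red) and under normal conditions (grey), with limma's 95% intervals, none of them called. TIFY9 lies at -0.40 under drought and 1.33 under normal conditions, and LOX8 and OPR6 have some of the widest intervals.

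Other genes of the pathway were looked up by name, and 14 had a probe set. Of these, 2 were up-regulated in both drought comparisons, JAMYB and ILL6, and none was called lower (3 were lower at an unadjusted limma p under 0.05 in each). JAMYB, a MYB factor gene known to respond to jasmonate in rice, read 8.68 and 8.90 in OE drought, against 7.63 and 7.15 in OE normal, and 9.15 and 8.78 in WT drought, against 6.28 and 6.28 in WT normal. As in TIFY9, the OE normal arrays stood between the WT normal arrays and all drought arrays. JAMYB rose by 1.40 in OE (SE 0.21, limma adjusted p = 0.0104) and by 2.69 in WT (SE 0.21, limma adjusted p = 0.000483). ILL6, whose Arabidopsis namesake cleaves jasmonoyl-isoleucine, read 8.88 and 9.45 in OE drought, against 7.89 and 7.29 in OE normal, and 8.79 and 9.13 in WT drought, against 6.86 and 6.31 in WT normal. The OE normal arrays again stood between the WT normal arrays and all drought arrays. ILL6 rose by 1.58 in OE (SE 0.28, limma adjusted p = 0.0219) and by 2.38 in WT (SE 0.28, limma adjusted p = 0.00196).

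No receptor gene was called. COI1 read 8.91 and 8.92 in OE drought, against 9.34 and 9.21 in OE normal, and 8.55 and 8.47 in WT drought, against 9.17 and 9.21 in WT normal. All 4 drought arrays lay below all 4 normal arrays, with changes of -0.36 in OE (limma adjusted p = 0.236) and -0.68 in WT (limma adjusted p = 0.0141), under 2-fold. COI1B had changes of 0.01 in OE and -0.11 in WT, and COI2 had -0.44 in OE (limma adjusted p = 0.275) and -0.72 in WT (limma adjusted p = 0.0314), also under 2-fold. MYC2 was not matched by name and was not analysed here. Over the 14 genes the median change was -0.07 in OE and 0.00 in WT. Several of the names looked up are also used for unrelated genes in rice, so the list may hold genes outside the pathway.

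The count in WT drought leaned on single arrays. Without WT normal replicate 2 or either WT drought array, fewer probe sets were called higher and lower over the whole array too. Such a fit leaves 1 array in a group, and the loss of calls was not particular to the 36 genes. WT normal replicate 2 was below replicate 1 on 28 of the 36 genes and on 12 of the 13 called genes, against 48.0% of all probe sets, and it also had the lowest hybridisation controls, whose part in this was not tested. The median gap between the WT normal replicates was 0.41 over the 36 genes and 0.22 over all probe sets. Without that array 5 genes were called higher, LOX5, JAR1, TIFY9, TIFY10B and TIFY10C, and 1 lower, AOS2. Without WT drought replicate 1, 8 genes were called higher, namely OPR7 and, of the 13, LOX5, AOS1, AOC3, TIFY3, TIFY9, TIFY10B and TIFY10C. Without WT drought replicate 2 they were 9, namely OPR5, OPR6 and, of the 13, LOX5, OPR1, JAR1, TIFY3, TIFY9, TIFY10B and TIFY10C, and TIFY2B was called lower. In OE both calls were lost without OE normal replicate 1, OE normal replicate 2 or OE drought replicate 2. LOX5, TIFY9, TIFY10B and TIFY10C stayed called in WT drought under every alternative in which their probe set was tested.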

How the data were processed

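For each probe set of an Affymetrix rice array, the authors deposited log2 expression values. The submitters' processing notes name RMA and Partek 6.5, and their settings are not given in the sources used here. Sorted values differed between arrays by up to 0.415, so the arrays did not have 1 shared distribution, and the values were tested without further scaling. Samples were grouped by the labelled genotype and condition, and replicates are those labelled biological. Probe sets were fitted with limma 3.58.1 (R 4.3.3). Residual degrees of freedom were 4 and prior ones 4.85, and p-values were adjusted by Benjamini-Hochberg over all 57194 probe sets, without 187 array controls. Lists and plots were made in Python 3.11.15 (numpy 2.4.6, pandas 2.3.3, matplotlib 3.10.9). The fit was tested on simulated data.

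The genes, the pathway and marker lists and the tests were chosen with earlier results of these data known. All 36 genes were accounted for in counts. The rule for named genes took every gene called in any comparison, the gene with the symbol JAZ5, and the brightest gene of a class without a call, and pathway genes were named when called or when they encode the receptor. Array values of OPR5, OPR6, OPR7, AOS2, AOS4 and TIFY6A were added after their values were seen. The RefSeq table of assembly ASM3414082v1 served for names and gene order only, and no sequences or coordinates are given. Alternatives covered the arrays in the fit (compared groups alone, each array left out, replicate block), the scale (quantile, median centring), the spread (trended, robust), thresholds, a minimum mean log2 value of 5, and the choice of probe sets (none that may match several transcripts, or a gene's median).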

Additional observations from a re-analysis of the deposited data

How the results depend on the processing

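Changes of called genes kept their direction under all alternatives, and of 267 repeats of these calls 228 were called again and 39 were not. Part of this was fixed in advance. Other thresholds, another spread, the replicate block, the compared groups alone, or leaving out an array of the other line cannot alter a change. Dropping the fold threshold cannot lose a call. In WT drought, the 13 genes called higher were 5 to 16 when single arrays were left out (5 after leaving out WT normal replicate 2, 8 after leaving out WT drought replicate 1) and 8 at an adjusted p under 0.01. Genes called lower there, 0 in all, were 0 to 2 when single arrays were left out, 1 after median centring (TIFY2B) and 2 with no fold threshold (AOS2 and TIFY2B). In OE drought, the 2 genes called higher were 0 to 4 when single arrays were left out and 0 at an adjusted p under 0.01. They were 1 (TIFY9) when probe sets that may match several transcripts, such as that of LOX5, were not used. The 4 were LOX5, OPR5, OPR6 and TIFY9, reached by leaving out either WT drought array. With the compared groups alone in the fit, OE drought gave 3 (LOX5, OPR5 and OPR6). Calls between OE and WT, and of the difference in drought change, stayed at 0 throughout. Replicate numbers did not pair the samples, since correlations of deviations ran from -0.166 to 0.0995, and with the replicate block 13 genes in WT drought and 2 in OE drought were called higher. Of the 36 genes, 32 had a mean log2 value above 5, and in the dimmer ones a fall could hardly be seen.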
